A study of Homo sapiens with 16 samples.

Results

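The genes described here are 10 transcripts that FGF receptors, acting through the kinases ERK1 and ERK2, are known to induce, most of which feed back on that pathway. They were chosen by symbol (EGR1, SPRY1, SPRY2, SPRY4, DUSP4, DUSP5, DUSP6, ETV4, ETV5 and SPRED1) from the 17738 genes of the deposited table. All 10 were found, and all 10 passed the filter on low values, a normalised read count of at least 10 in at least 2 of 16 libraries, which 16714 genes passed. RNA was sequenced from H1, an established line of human embryonic stem cells with a wild-type genotype, after 24 h in E7 medium (E8 medium without TGFb) or in E7 with 1.74 ng/mL of TGFb, or with Activin A or NODAL, both dosed at 100 ng/mL. Each of these 4 media was used without and with 2DG (2-deoxyglucose) at 3 mM, which gave 8 groups of 2 libraries: E7, E7+TGFb, E7+ActivinA, E7+NODAL and the same 4 with +2DG. 2DG is a glucose analog that blocks glycolysis after uptake. FGF2 and insulin are listed in the E8 recipe of the labels, so every group, the E7 controls included, was grown with an FGF ligand in the medium. The labels do not say that replicates were separate cultures, so p-values measure only the spread between these samples.

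FGF ligands bind FGF receptors, which recruit adaptors that switch on RAS, and RAS starts a chain of kinases, RAF, MEK and ERK. Active ERK phosphorylates transcription factors such as ELK1 and relieves repression by CIC, and the genes switched on in this way include several that damp the signal. In human pluripotent cells FGF2 is supplied in the medium because the pathway supports self-renewal. The Sprouty genes (SPRY1, SPRY2, SPRY4) and SPRED1 encode inhibitors that act above ERK, with SPRED1 bringing neurofibromin to RAS. The DUSP genes encode phosphatases that remove the activating phosphates from ERK: DUSP6 in the cytoplasm, DUSP4 and DUSP5 in the nucleus. ETV4 and ETV5 are ETS-family transcription activators, and EGR1 is a zinc finger factor of the immediate early class, induced within minutes and short-lived.

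The sequence before the start site is shown for the 3 members that mark the different behaviours below: EGR1, which had its lowest mean in E7+ActivinA, SPRY1, which was highest with NODAL, and DUSP6, which fell most with 2DG. Each is the 250 bases before a transcript start, on the gene's own strand, from RefSeq (GRCh38.p14), at chr5:138465229-138465478 (plus strand), chr4:123398136-123398385 (plus strand, the second of 2 SPRY1 starts) and chr12:89352502-89352751 (minus strand). Capitals mark CArG boxes, the binding sequence of the ERK-responsive factor SRF, in EGR1, and the ETS sequence CCGGAAG in SPRY1. The shorter ETS core GGAA was neither searched nor marked, and GGAA or its reverse complement TTCC also occurs in the EGR1 and DUSP6 sequences.
EGR1: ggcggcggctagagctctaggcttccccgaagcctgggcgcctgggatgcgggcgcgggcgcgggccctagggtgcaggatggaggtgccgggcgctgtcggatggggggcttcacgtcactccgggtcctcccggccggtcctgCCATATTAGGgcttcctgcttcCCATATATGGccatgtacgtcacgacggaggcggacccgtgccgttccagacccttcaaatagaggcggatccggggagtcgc
SPRY1: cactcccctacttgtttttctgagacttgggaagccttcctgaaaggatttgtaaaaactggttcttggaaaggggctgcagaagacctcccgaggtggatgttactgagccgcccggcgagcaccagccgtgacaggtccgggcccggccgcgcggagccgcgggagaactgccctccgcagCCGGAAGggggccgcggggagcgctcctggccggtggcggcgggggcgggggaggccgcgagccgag
DUSP6: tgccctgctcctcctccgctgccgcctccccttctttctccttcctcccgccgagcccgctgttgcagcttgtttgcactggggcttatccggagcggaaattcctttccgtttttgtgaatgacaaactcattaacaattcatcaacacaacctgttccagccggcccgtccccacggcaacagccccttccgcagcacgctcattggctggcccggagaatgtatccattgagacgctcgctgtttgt
RefSeq held 9 start windows of 300 bases (250 before to 50 after the start) for 6 members: EGR1, SPRY1, SPRY2, SPRY4, SPRED1 and DUSP6. DUSP4, DUSP5, ETV4 and ETV5 were not searched. On both strands of these windows, CArG boxes were found in EGR1 alone, 2 of them, whose first bases lie at positions -105 and -83 from the start, while 1.29% of all 35116 windows of that length in the table hold one. The ETS sequence CCGGAAG was found at -67 of the second SPRY1 window, and 10.3% of all windows hold it. TGACG, the core of the cyclic AMP response element, was found in EGR1 at -135 and -66, in a SPRY2 window at -190 and in SPRY4 at -68. That is 3 of the 9 windows, from 3 of 6 members, beside 24.6% of all windows. The CIC octamer forms TGAATGAA and TGAATGGA (in 1.66% and 1.03% of all windows) had no match in these windows. Neither had the full element TGACGTCA (1.85%, which contains TGACG), the AP-1 site TGANTCA (7.71%) or the CHOP and ATF4 composite TGATGNAA (3.62%). Forms of the CIC octamer with C in place of the first G were not searched. The DUSP6 sequence above holds such a form on its reverse strand, so the search does not show that DUSP6 lacks a CIC octamer. A match is a description of letters and not a measured binding site.

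Depth and replicate agreement set the precision. Recovered reads per library were 14600479 to 17630329. Replicates differed by more than counting error alone gives, with a chi-square of 50.3 for each degree of freedom in E7+ActivinA, 13.9 in E7+ActivinA+2DG, 9.53 in E7 and 1.55 to 5.03 in the other 5 groups. The fit pools the spread of all 16 libraries, so the Activin A libraries widen the error of comparisons that do not include them. Comparisons that include E7+ActivinA are measured against a spread pooled with libraries that agree better. In fits of only the compared libraries, which are also fewer, genes called fell from 1675 to 96 for Activin A without 2DG. For 2DG in Activin A medium they fell from 284 to 3. Across genes, the replicate difference in E7+ActivinA followed exon length with Spearman's rho = -0.46, that in E7 with rho = 0.347, and the 2DG response in E7 with rho = 0.31. The largest values among the comparisons were 0.417 for TGFb without 2DG, and -0.385 and -0.378 for the 2DG response in TGFb and NODAL media less that in E7. The exon lengths of the members were 2615 to 8260 bases, and 5 of 10 exceeded the median of tested genes, 4574. The part of length in the members' responses was not tested. The 10 markers of undifferentiated cells, POU5F1 among them, were all present, with summed levels of 130449 to 167061 normalised reads. Of 10 fibroblast markers 5 were listed (sums of 3359 to 5316), of 8 trophoblast markers 3 (sums of 57.2 to 156), and of 8 early neural markers 5 (sums of 7880.4 to 12099). Of 10 polyadenylated histone transcripts, used as a sign of RNA quality, 9 were listed (sums of 327 to 657).

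All members except EGR1 were well expressed. Per kilobase of exon, the mean over the 16 libraries was 1033 normalised reads for ETV4, 617 for DUSP6, 503 for SPRY4, 445 for SPRY2 and 330.4 for DUSP5. It was 230.5 for SPRY1, 188 for ETV5, 177 for SPRED1, 57.5 for DUSP4 and 4.5 for EGR1. EGR1 was represented by only 3 to 30 reads per library, and reached a value of 10 in 12 of 16 libraries, so its counting error is large, whereas the fewest reads behind any other member were 231, for DUSP4. The genes lie, in GENCODE 29 on GRCh38, at chr5:138465490-138469315, plus strand (EGR1), chr4:123396795-123403760, plus strand (SPRY1), chr13:80335976-80340951, minus strand (SPRY2), chr5:142310427-142326455, minus strand (SPRY4) and chr15:38252326-38357249, plus strand (SPRED1). The others lie at chr8:29333064-29350668, minus strand (DUSP4), chr10:110497838-110511544, plus strand (DUSP5), chr12:89347232-89353271, minus strand (DUSP6), chr17:43527844-43579620, minus strand (ETV4) and chr3:186046308-186110318, minus strand (ETV5). The strand setting of the counting is not given in the sources used here. Exons of DUSP6 share 1875 bases with the antisense gene AC024909.2 and exons of ETV4 share 68 bases with DHX8 on the opposite strand. Without the strand setting it is not known whether reads there were told apart. ETV5 shares 164 exonic bases with DGKG on the same strand.

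**Figure D1:**
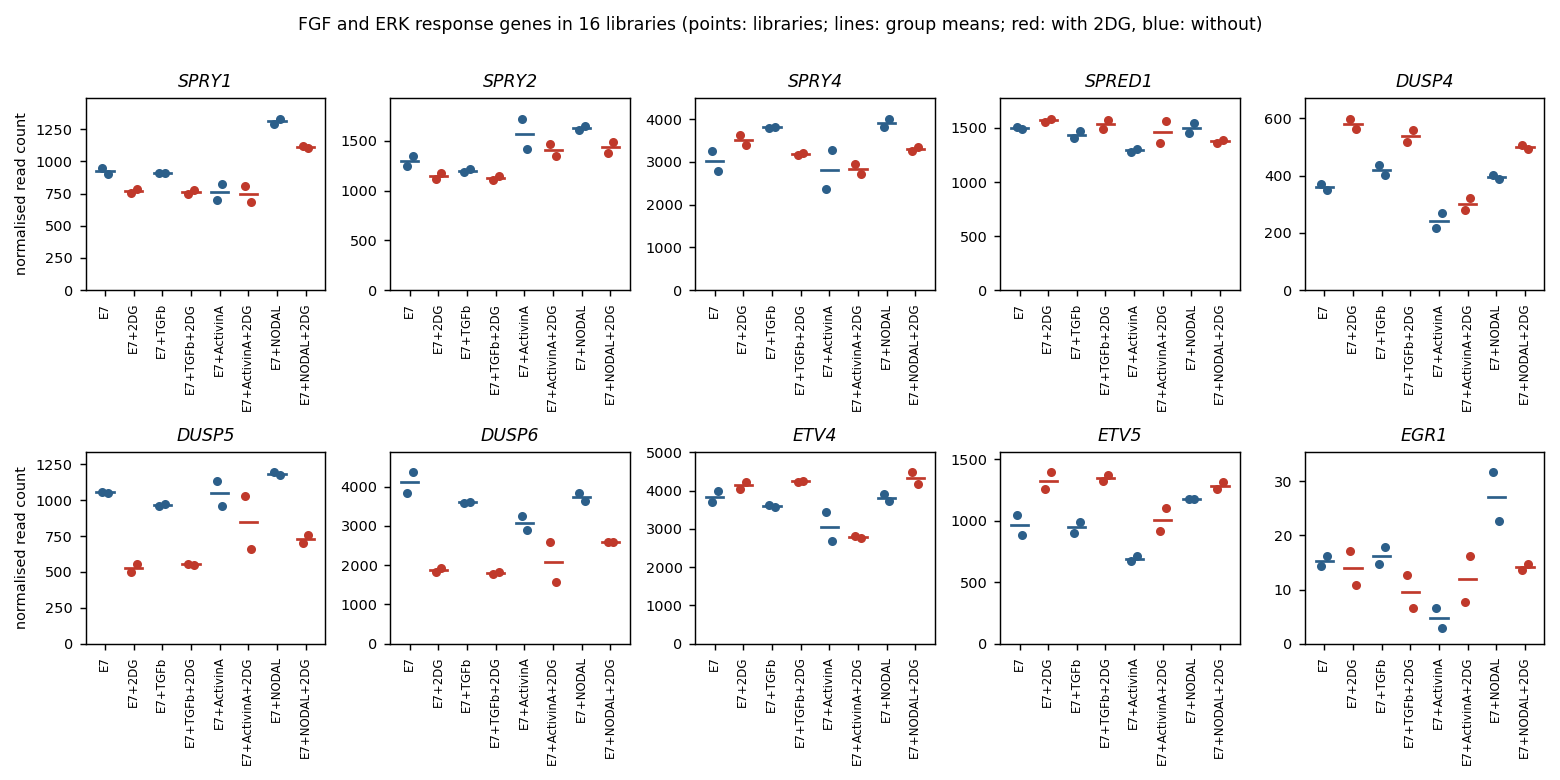
Normalised read counts (y axis, from 0) of the 10 members in the 8 groups (x axis); each point is 1 of 16 libraries, each line the mean of 2, blue without and red with 2DG. DUSP5 and DUSP6 are lower with 2DG in E7, TGFb and NODAL media without overlap, DUSP4 and ETV5 are higher, SPRY1 is highest in the 4 NODAL libraries, and EGR1 has its lowest mean in E7+ActivinA.

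2DG lowered DUSP5 and DUSP6 and raised DUSP4 and ETV5 in E7 medium, so the members did not move in 1 direction. With 2DG in E7, 2 of 10 members were called higher and 2 lower (limma, adjusted p under 0.05). Of all genes tested, 14.6% were called higher and 14.8% lower, and the members' counts are close to those shares. Averaged over the 4 media, 2 members rose and 4 fell, and of all genes 19.2% were called higher and 19.4% lower. The members' median log2 fold change with 2DG was -0.04 in E7 and -0.11 averaged over media, beside medians of -0.0030 and -0.00061 over all genes. Mesendoderm markers moved with 2DG as well: 3 of the 5 tested fell in E7, and all 5 averaged over the media, where markers of undifferentiated cells had 3 higher and 2 lower (median 0.05) of 10, fibroblast markers 1 higher and 3 lower (median -0.20) of 5, trophoblast markers 1 higher and 1 lower (median -0.23) of 2, early neural markers 0 higher and 1 lower (median -0.09) of 5 and histones 0 higher and 1 lower (median -0.31) of 7. Their part in the members' values was not tested. In bulk RNA, fewer cells that express a gene and less of its RNA per cell cannot be told apart.

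DUSP6 counted 3846 and 4370.2 normalised reads in replicates 1 and 2 of E7, and 1831 and 1928 in those of E7+2DG. In TGFb medium it counted 3585 and 3611 without 2DG and 1772 and 1820.0 with it. The 4 libraries with 2DG all lay below 2592, the lowest E7+NODAL+2DG value, and far below the 4 without. The log2 fold change was -1.13 (SE 0.16, adjusted p = 0.00066) in E7 and -1.002 (SE 0.16, adjusted p = 0.0024) in TGFb medium. In NODAL medium DUSP6 went from 3835 and 3638 to 2592 and 2599.5, and in Activin A medium from 3249.7 and 2885 to 2599 and 1574. The libraries did not overlap in either medium, but these differences, -0.52 (SE 0.16, adjusted p = 0.078) and -0.60 (SE 0.16, adjusted p = 0.087), did not pass the limma test. DESeq2 on the recovered reads called both (adjusted p = 0.039 and 0.044), and without the 4 Activin A libraries the limma value for NODAL medium was called (adjusted p = 2.8e-05). Averaged over the 4 media, DUSP6 fell by 0.81 (SE 0.08, adjusted p = 9.4e-06). The overlap with AC024909.2 given above applies to all these values.

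DUSP5, a nuclear phosphatase specific for ERK, was also lower with 2DG. It counted 1059 and 1051 in E7 and 503 and 559 in E7+2DG. The corresponding values were 961 and 972 and 557 and 547 with TGFb, and 1196 and 1172 and 699 and 757 with NODAL. In these 3 media the libraries with 2DG lay below all those without. DUSP5 fell by 0.99 (SE 0.16, adjusted p = 0.00095) in E7, by 0.81 (adjusted p = 0.0067) with TGFb and by 0.70 (adjusted p = 0.02) with NODAL. The TGFb and NODAL calls were each lost when any of the 4 libraries they compare was left out (adjusted p = 0.055 to 0.063 and 0.099 to 0.17). In Activin A medium the values were 1137 and 962 without 2DG and 1029 and 662 with it. There the groups overlapped, and the difference of -0.34 (SE 0.16, adjusted p = 0.24) did not pass. Without replicate 1 of E7+ActivinA+2DG it was -0.66 (adjusted p = 0.0059), and without replicate 2 of E7+ActivinA it was -0.46 (adjusted p = 0.041).

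DUSP4, the third phosphatase, moved the opposite way. Its values were 371 and 350.1 in E7 and 599.7 and 562 in E7+2DG, a rise of 0.69 (SE 0.12, adjusted p = 0.0018). Both libraries with 2DG exceeded every library without 2DG in any medium. With TGFb the values were 438 and 403 without and 518 and 559 with 2DG, with NODAL 402 and 387 and 507 and 493, and with Activin A 217 and 269 and 279.8 and 323. The groups did not overlap in any of the 3 media, but the differences of 0.36, 0.34 and 0.32 did not pass (adjusted p = 0.085, 0.12 and 0.19). Averaged over the media DUSP4 rose by 0.42 (adjusted p = 0.00015).

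ETV5 was called higher with 2DG in 3 media, and ETV4, the related ETS factor, in none with all 16 libraries in the fit. ETV5 counted 1047 and 883 in E7 and 1258 and 1395 in E7+2DG, 898 and 993 in E7+TGFb and 1320.4 and 1374 in E7+TGFb+2DG. In Activin A medium it counted 671 and 712 without and 916 and 1104 with 2DG. The libraries of each pair of groups did not overlap. The log2 fold changes were 0.46 (SE 0.11, adjusted p = 0.0089) in E7, 0.51 (SE 0.11, adjusted p = 0.013) with TGFb and 0.54 (SE 0.11, adjusted p = 0.032) with Activin A. The E7 call was lost without replicate 2 of E7 (adjusted p = 0.12) or of E7+2DG (0.076). The TGFb call was lost without any of its 4 libraries (0.055 to 0.13), and the Activin A call in 12 of the 16 fits that leave out 1 library (0.051 to 0.46). With NODAL, ETV5 was already at 1174 and 1174 without 2DG and reached 1256 and 1313 with it, a difference of 0.13 (SE 0.11, adjusted p = 0.57). ETV4 stayed between 2679.8 and 4481 in all 16 libraries, and its responses to 2DG in the 4 media were 0.11, 0.24, -0.12 and 0.18 in E7, TGFb, Activin A and NODAL media, with adjusted p of 0.45, 0.17, 0.51 and 0.34. Without the 4 Activin A libraries, ETV4 was called higher in TGFb and NODAL media (adjusted p = 0.0086 and 0.047).

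The inhibitors above ERK responded less to 2DG. Averaged over the media, SPRY1 fell by 0.20 (SE 0.05, adjusted p = 0.0081) and SPRY2 by 0.15 (SE 0.05, adjusted p = 0.031). The SPRY2 call was lost in 9 of the 16 fits that leave out 1 library (0.054 to 0.08). SPRY1 counted 953 and 903 in E7 and 757 and 785 in E7+2DG, and neither SPRY1 (-0.27 (SE 0.10, adjusted p = 0.069)) nor SPRY2 (-0.18 (SE 0.10, adjusted p = 0.19)) was called in E7 alone. SPRY4 had 2DG responses of 0.22 in E7, -0.26 with TGFb, 0.03 with Activin A and -0.24 with NODAL, none of them called. Its mean response over the media was -0.06 (SE 0.06, adjusted p = 0.45). SPRED1 varied least of the members, with a highest group mean only 1.22 times the lowest. With the deposited scaling and all 16 libraries it was called in no comparison. Its mean response to 2DG was 0.05 (SE 0.04, adjusted p = 0.36).

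EGR1, the immediate early gene, counted 14.4 and 16.2 in E7 and 17.1 and 10.9 in E7+2DG. In TGFb medium it counted 14.7 and 17.8 without and 12.7 and 6.53 with 2DG. In Activin A medium the values were 6.57 and 2.82 without and 7.64 and 16.1 with it, and in NODAL medium 31.7 and 22.6 without and 13.6 and 14.7 with it. The groups overlapped in E7 and did not in the other 3 media. The 2DG responses were -0.15 (SE 0.46) in E7, -0.76 (SE 0.46) with TGFb, 1.18 (SE 0.46) with Activin A and -0.88 (SE 0.46) with NODAL. The lowest adjusted p was 0.18, so no response of EGR1 to 2DG passed. Its mean response over the 4 media was -0.15 (SE 0.23, adjusted p = 0.63). Without the 4 Activin A libraries its mean response over the other 3 media was -0.59, which was called (adjusted p = 0.038). That mean was not planned, and it leaves out the only medium where EGR1 was higher with 2DG.

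**Figure D2:**
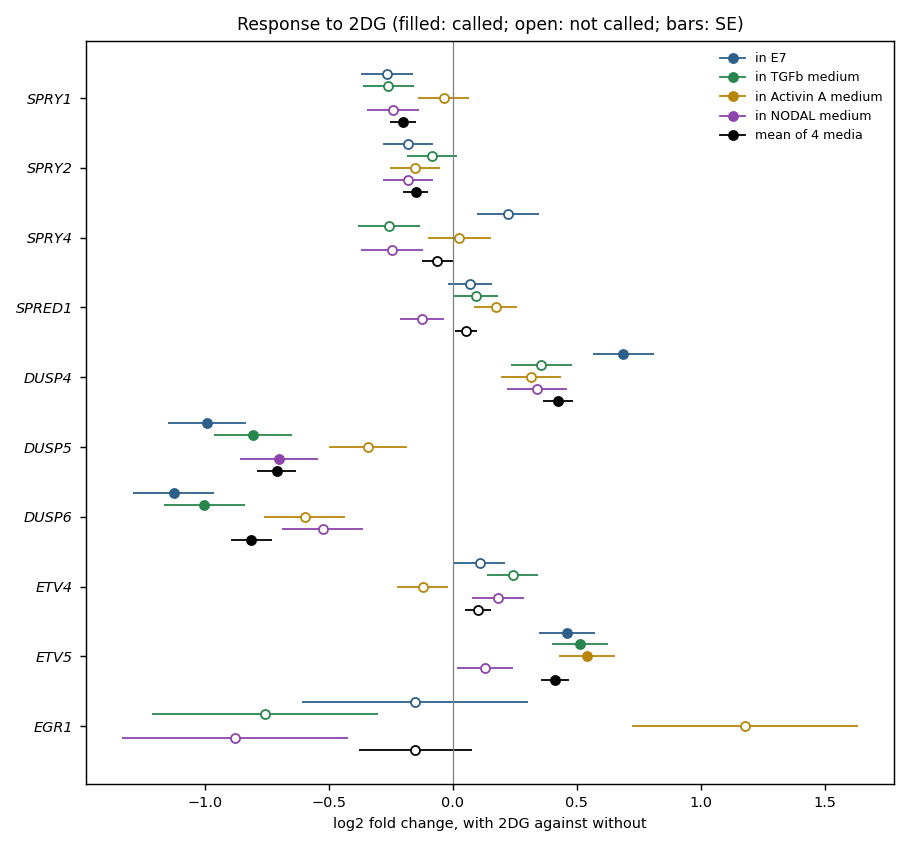
Log2 fold change with 2DG (x axis, bars 1 SE) of the 10 members (y axis) in each of 4 media and averaged over them; filled points were called at an adjusted p under 0.05. DUSP5 and DUSP6 lie left of 0 and DUSP4 and ETV5 right of 0 in every medium, while SPRED1 and ETV4 stay near 0 and EGR1 has the widest bars.

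By medium, the calls with 2DG were 1 member higher and 2 lower in TGFb medium, where of all genes 5.47% were called higher and 4.37% lower. In Activin A medium 1 member was higher and none lower, and of all genes 1.48% were called higher and 0.221% lower. In NODAL medium none was higher and 1, DUSP5, lower, and of all genes 3.11% were called higher and 2.76% lower. Whether the media changed the response was tested as the interaction with 2DG, the response in a medium less the response in E7. limma called 0 members in the 3 interactions, and edgeR and DESeq2 on the recovered reads also called 0, while 1, 2 and 2 members had an unadjusted p under 0.05 for TGFb, Activin A and NODAL. Of all genes, 0% and 0% were called higher and lower in the TGFb interaction, 0.0419% and 0% in that of Activin A, and 0.987% and 0.885% in that of NODAL (117 and 276 genes with the same total in every library, in place of 165 and 148). The largest terms for NODAL were those of DUSP6, 0.60 (SE 0.23, adjusted p = 0.12), and SPRY4, -0.47 (SE 0.18, adjusted p = 0.12), if EGR1 is set aside for its few reads. Without the 4 Activin A libraries both were called (adjusted p = 0.00019 and 0.002).

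The added ligands were each compared with E7, to ask what TGFb, Activin A and NODAL change in cells that already receive FGF2. The 3 comparisons share the same 2 E7 libraries, or the same 2 E7+2DG libraries, so their values are set side by side only. Without 2DG, SPRY1, SPRY2 and SPRY4 were called higher with NODAL, DUSP4, ETV5 and EGR1 were called lower with Activin A, and no member was called with TGFb. Several of these calls depend on single libraries or on the test, as given with each.

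With TGFb at 1.74 ng/mL, limma called 0 members without 2DG and 0 with it, and 0% of all genes higher and 0% lower without 2DG (0% and 0% with it). At an unadjusted p under 0.05 there were 1 and 0 members and 3771 and 273 genes. edgeR called 0 genes in both, and DESeq2 called 310 and 0, no member among them. SPRY4 had the largest difference without 2DG, from 3258 and 2779.8 in E7 to 3786 and 3824 in E7+TGFb (0.34 (SE 0.13, adjusted p = 0.16)). The groups did not overlap, and the difference was called without the 4 Activin A libraries (adjusted p = 0.0022).

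With NODAL, 3 of 10 members were called higher and none lower, and of all genes 10.6% were called higher and 10.9% lower. With every library scaled to the same total, 2676 genes were higher and 916 lower, in place of 1780 and 1821, and the members' differences shifted upward by 0.13 (median, log2 scale). ETV5 was then called as well (0.41, adjusted p = 0.023). Other lists moved with NODAL: undifferentiated markers had 0 higher and 5 lower of 10 (median -0.26), mesendoderm markers 2 higher and 0 lower of 5, fibroblast and early neural markers 1 higher each of 5, trophoblast markers 1 lower of 2 and histones 1 lower of 7 (median -0.78). The histone sums were 517 and 603 in E7 and 345 and 360.2 in E7+NODAL, and the undifferentiated sums 158782 and 167061 against 130449 and 137217. Their part in the members' values was not tested. SPRY1 counted 953 and 903 in E7 and 1294 and 1333 in E7+NODAL. It counted 757 and 785 in E7+2DG and 1120.5 and 1101 in E7+NODAL+2DG. The 4 NODAL libraries held the 4 highest SPRY1 values of the 16. SPRY1 rose by 0.50 (SE 0.10, adjusted p = 0.0056) without 2DG and by 0.53 (SE 0.10, adjusted p = 0.038) with it. With 2DG it was the only member called, 1 higher and none lower, and of all genes 0.425% were called higher and 0.209% lower (107 higher and 28 lower with the same total, in place of 71 and 35). The call without 2DG was lost without replicate 2 of E7 or of E7+NODAL (adjusted p = 0.062 and 0.06), and that with 2DG in 12 of the 16 fits that leave out 1 library (0.055 to 0.31).

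SPRY2 counted 1250.4 and 1348 in E7 and 1607 and 1644 in E7+NODAL, a rise of 0.32 (SE 0.10, adjusted p = 0.035). SPRY4 counted 3258 and 2779.8 in E7 and 3817 and 4013 in E7+NODAL, a rise of 0.38 (SE 0.13, adjusted p = 0.046). Neither pair of groups overlapped, but both calls lie near the threshold. They were lost in 10 and 11 of the 16 fits that leave out 1 library (adjusted p up to 0.17 and 0.32). With 2DG present, SPRY2 differed by 0.32 (SE 0.10, adjusted p = 0.16) and SPRY4 by -0.09 (SE 0.13, adjusted p = 0.73), neither called. EGR1 was at its highest in E7+NODAL, with 31.7 and 22.6, but the difference from E7, 0.77 (SE 0.46, adjusted p = 0.25), did not pass. DUSP4, DUSP5, DUSP6, ETV4, ETV5 and SPRED1 had differences of 0.13, 0.17, -0.13, -0.01, 0.29 and 0.00 with NODAL, none called. With 2DG present, DUSP5 and DUSP6 were higher with NODAL by 0.46 and 0.47 (adjusted p = 0.19 and 0.2). Both were called without the 4 Activin A libraries (adjusted p = 0.00092 and 0.00023).

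With Activin A, no member was called higher and 3 were called lower, and of all genes 5.28% were called higher and 4.74% lower. DUSP4 counted 217 and 269 in E7+ActivinA against 371 and 350.1 in E7, and fell by 0.57 (SE 0.12, adjusted p = 0.0091). ETV5 counted 671 and 712 against 1047 and 883, and fell by 0.48 (SE 0.11, adjusted p = 0.017). E7+ActivinA held the lowest values of both genes among the 8 groups. Both calls were lost without replicate 1 of E7 (adjusted p = 0.063 and 0.14), and with only the 4 libraries compared, whose own replicate spread was large (0.4 and 0.43).

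EGR1 counted 6.57 and 2.82 in E7+ActivinA against 14.4 and 16.2 in E7, and fell by 1.60 (SE 0.46, adjusted p = 0.04). These values rest on 10 reads over the 2 Activin A libraries and 31 over the 2 E7 libraries. Their depth-corrected ratio was 0.308 (95% exact interval 0.135 to 0.644, counting error only). The call was at the threshold: it was lost with edgeR (adjusted p = 0.062), DESeq2 (0.086) and a pseudocount of 8 (0.058), and in 10 of the 16 fits that leave out 1 library (0.05 to 0.2). FOS, another immediate early gene, counted 121 and 129 in E7 and 109.8 and 83.8 in E7+ActivinA (-0.38 (SE 0.25, adjusted p = 0.39)), and IER2 differed by -0.05 (SE 0.13, adjusted p = 0.85). DUSP1, a phosphatase induced by many stimuli, differed by 0.02 (SE 0.23, adjusted p = 0.97). None of these 3 was called.

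With 2DG present, Activin A left 1 member higher and 3 lower, and of all genes 4.27% were called higher and 3.25% lower. DUSP4 counted 279.8 and 323 against 599.7 and 562 in E7+2DG, and fell by 0.95 (SE 0.12, adjusted p = 0.00021). ETV4 counted 2812 and 2766 against 4052 and 4231, and fell by 0.57 (SE 0.10, adjusted p = 0.0031). Both calls were kept in all 16 fits that leave out 1 library. ETV5 fell by 0.40 (adjusted p = 0.048), from 1258 and 1395 to 916 and 1104, a call lost with edgeR (0.051), with the same total in every library (0.054) and in 11 of the 16 (0.066 to 0.37). DUSP5 rose by 0.64 (SE 0.16, adjusted p = 0.022), from 503 and 559 to 1029 and 662. The call was lost without either E7+2DG library or without replicate 1 of E7+ActivinA+2DG (0.073 to 0.21), where it was 0.32. Mesendoderm markers moved with Activin A: 5 of 8 were listed, and 4 of these were called higher without 2DG and 4 with it. Markers of undifferentiated cells had 3 lower of 10 without 2DG (median -0.25) and 2 lower with it, and trophoblast markers 1 lower of 2 in both. With 2DG, fibroblast and early neural markers had 1 higher each of 5. The summed level of the mesendoderm markers was 189.6 and 213 in the E7 libraries and 1581 and 1727 in E7+ActivinA. It was 58.7 and 70.2 in E7+2DG and 931 and 1481 in E7+ActivinA+2DG, and 555 and 588 in E7+NODAL. The part of such cells in the members' values was not tested.

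**Figure D3:**
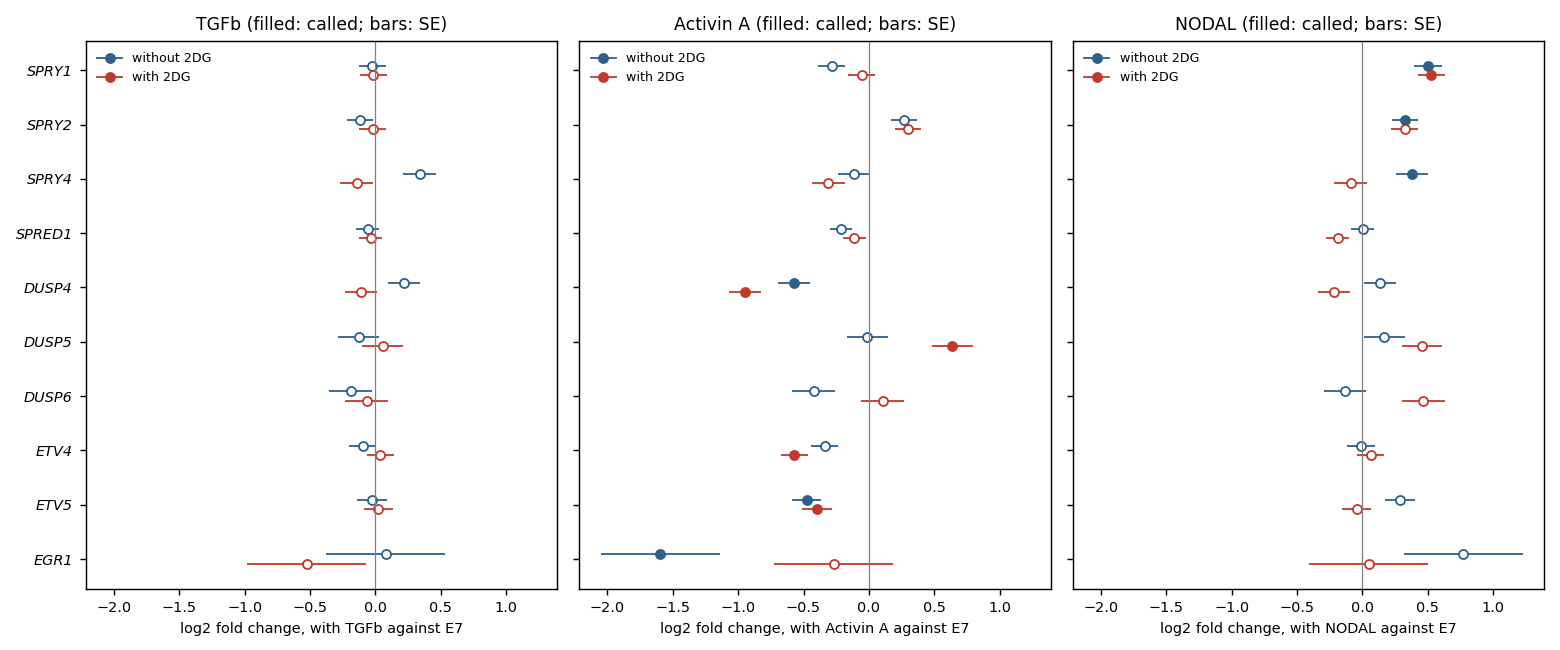
Log2 fold change (x axis, bars 1 SE) of the 10 members (y axis) with TGFb, Activin A or NODAL against E7, in blue without and in red with 2DG; filled points were called and open points were not. NODAL has the called rises of SPRY1, SPRY2 and SPRY4, Activin A the called falls of DUSP4, ETV4, ETV5 and EGR1 with a rise of DUSP5, and TGFb has no filled point.

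NODAL and Activin A signal through the same type of receptors and were used at the same 100 ng/mL, and were compared directly after their values had been seen. Without 2DG, 5 of 10 members were called higher with NODAL than with Activin A and none lower, and of all genes 4.43% were called higher and 3.58% lower (1169 higher and 378 lower with the same total, in place of 740 and 598). With the same total, ETV4 (0.41, adjusted p = 0.018) and SPRED1 (0.30, adjusted p = 0.049) were called as well. Of 5 mesendoderm markers, 3 were lower with NODAL than with Activin A without 2DG and 4 with it, and 1 of 7 histones was lower without 2DG (median -0.85). Their part was not tested. The 5 members called with the deposited scaling were EGR1 (2.37 (SE 0.46, adjusted p = 0.0073)), SPRY1 (0.79 (SE 0.10, adjusted p = 0.0007)), ETV5 (0.76 (SE 0.11, adjusted p = 0.0015)), DUSP4 (0.71 (SE 0.12, adjusted p = 0.0039)) and SPRY4 (0.49 (SE 0.13, adjusted p = 0.029)). EGR1 rested on 54 reads over the 2 NODAL libraries and 10 over the 2 Activin A libraries, a depth-corrected ratio of 5.72 (95% exact interval 2.89 to 12.6, counting error only). The SPRY1 and ETV5 calls were kept whichever library was left out. Those of DUSP4 and EGR1 were lost without replicate 1 of E7+NODAL (adjusted p = 0.052 and 0.083). That of SPRY4 was lost without either NODAL library or without replicate 1 of E7+ActivinA (0.088 to 0.19), and all 5 were lost in a fit of only these 4 libraries (0.21 to 0.43). With 2DG, 3 members were called higher and none lower, and of all genes 4.59% were called higher and 5.26% lower: DUSP4 (0.73 (SE 0.12, adjusted p = 0.0017)), ETV4 (0.63 (SE 0.10, adjusted p = 0.0015)) and SPRY1 (0.58 (SE 0.10, adjusted p = 0.0028)).

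The rest of the pathway was read through 7 lists with 110 genes, of which 100 were tested. Averaged over the media, 2DG left 24 of the 100 higher and 21 lower. That is 45% called in either direction beside 38.6% of all genes. Without 2DG, Activin A left 13 higher and 4 lower (17% beside 10%), and NODAL 14 higher and 5 lower (19% beside 21.5%). The median log2 fold changes of the 100 genes were 0.05, 0.04 and 0.09.

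Of the listed genes of the FGF family, which are not all ligands of FGF receptors, 13 were tested, FGF11, FGF12 and FGF13 among them. FGF8, a ligand of early mesoderm, counted 121 and 146 in E7, 33.2 and 34.8 in E7+2DG, 787 and 499 in E7+ActivinA and 302 and 248 in E7+NODAL. It fell by 1.93 with 2DG in E7 (adjusted p = 0.00017) and rose by 2.23 with Activin A and 1.04 with NODAL (adjusted p = 1.4e-05 and 0.0042). FGF4 fell by 0.65 with 2DG in E7 and rose by 1.10 with Activin A. FGF2, the ligand also present in the medium, rose by 0.52 with 2DG in E7, from 1599 and 1563 to 2422 and 2118 (adjusted p = 0.035). In counts, 2DG averaged over the media left 2 higher and 3 lower (median -0.03), Activin A 2 higher and 1 lower (median -0.26) and NODAL 1 higher and 1 lower (median -0.06).

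The 6 FGF receptor genes tested had 2 higher and 2 lower (median -0.00) with 2DG over the media, 1 higher and 1 lower (median 0.02) with Activin A and 3 higher and 0 lower (median 0.27) with NODAL. FGFR1, which had the highest counts of the receptor genes named here, counted 4034 and 3540.0 in E7 and 5313 and 5361 in E7+2DG, a rise of 0.50 (adjusted p = 0.0024), and rose by 0.42 with NODAL (adjusted p = 0.0083). FGFR2 rose by 0.37 with 2DG in E7 and fell by 0.37 with Activin A (adjusted p = 0.022 and 0.042). The 12 adaptors of receptor tyrosine kinases had 2 higher and 0 lower (median 0.04) with 2DG, 1 higher and 0 lower (median 0.02) with Activin A and 1 higher and 0 lower (median 0.21) with NODAL. With 2DG the 2 were GAB2, a docking protein (0.84), and CBL, a ubiquitin ligase of receptors (0.50). The 14 genes of the kinase chain from RAS to ERK and its RSK targets had 4 higher and 3 lower (median 0.02) with 2DG, 0 higher and 1 lower (median 0.05) with Activin A and 4 higher and 1 lower (median 0.19) with NODAL. The largest change with 2DG was that of RPS6KA2 (0.58), and with NODAL that of KSR1, a scaffold of the chain (0.73).

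Of 19 other listed regulators, mainly inhibitors but with SHOC2 among them, 2DG left 4 higher and 3 lower (median 0.11). Activin A left 2 higher and 0 lower (median 0.02) and NODAL 1 higher and 2 lower (median 0.08). DUSP8, a phosphatase of JNK and p38, rose by 0.94 with 2DG. SPRED2, which works like SPRED1, counted 557 and 458 in E7 and 746 and 779.7 in E7+2DG and rose by 0.59 there (adjusted p = 0.0095). ERRFI1, an inhibitor of EGF receptors, rose by 0.91 with Activin A. Of 23 other response genes tested, out of 24 listed, 2DG left 8 higher and 5 lower (median 0.07), Activin A 4 higher and 1 lower (median 0.01) and NODAL 2 higher and 1 lower (median -0.05). IER3, an immediate early gene, fell with 2DG in E7 from 1250.4 and 1497 to 511 and 539 (-1.38 (SE 0.16, adjusted p = 0.00023)), the direction of DUSP5 and DUSP6. GDF15, a stress-induced secreted factor, rose by 2.51 averaged over the media, and JUNB rose by 1.32 with Activin A. MYC differed with 2DG in E7 by 0.14 (SE 0.13, adjusted p = 0.44) and JUN by 0.11 (SE 0.20, adjusted p = 0.71). Of 13 ETS factors and repressors, 2DG left 2 higher and 5 lower (median 0.01), Activin A 3 higher and 0 lower (median 0.18) and NODAL 2 higher and 0 lower (median 0.28). CIC, the repressor that ERK inactivates, counted 349 and 262 in E7 and 644 and 600.3 in E7+2DG and rose by 1.04 (adjusted p = 0.001), and by 0.82 with NODAL (adjusted p = 0.0048). ETS1 and FLI1, ETS activators, rose by 1.01 and 1.61 with Activin A, where ETV5 fell.

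**Figure D4:**
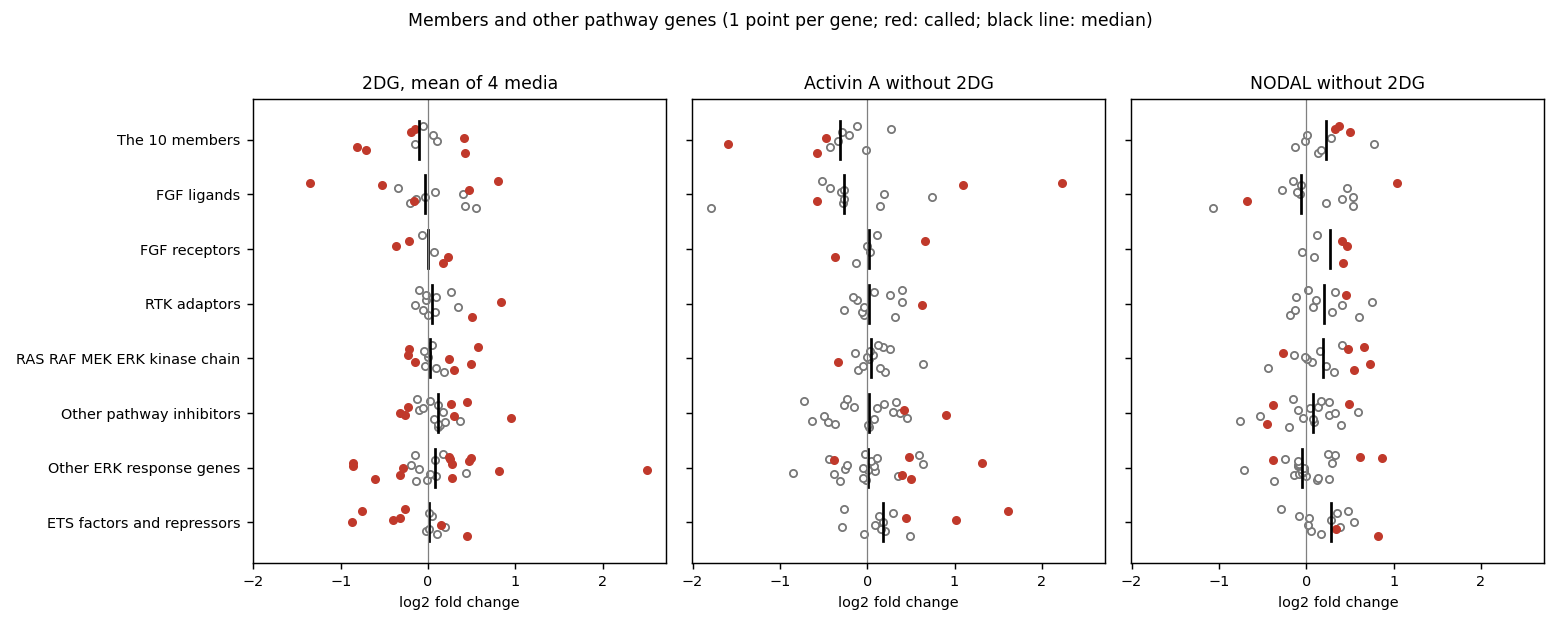
Log2 fold change (x axis) of the 10 members and of the tested genes of 7 pathway lists (y axis), 1 point per gene, with 2DG averaged over 4 media (left), with Activin A (middle) and with NODAL (right), both without 2DG; red points were called and black lines are medians. Called points lie on both sides of 0 with 2DG, and the medians of the 7 lists stay near 0, from -0.26 to 0.28. The medians of the 10 members are -0.11 with 2DG, -0.31 with Activin A and 0.23 with NODAL.

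Patterns over the 8 group means of log2 of the value plus 1 separated the members, as a description of 8 points that share libraries, scaling and media. DUSP6 and DUSP5 had Pearson's r = 0.89, ETV5 and DUSP4 r = 0.90, and ETV5 and ETV4 r = 0.75. DUSP6 and DUSP4, both phosphatases of ERK, had r = -0.41, and ETV5 and DUSP5 r = -0.67. EGR1 was most like SPRY4 (r = 0.77) and SPRY1 (0.74) among the members, and SPRY4 had -0.14 with SPRY2. Among genes averaging at least 100 in the 16 libraries, the 5 most like DUSP6 were D21S2088E (0.99), TMSB15A (0.99), TERF1 (0.98), KYAT3 (0.98) and TOMM34 (0.98). Those most like ETV5 were NPR2 (0.97), ENO2 (0.97), FAM212B (0.97), RAB29 (0.97) and CXorf23 (0.97). SPRY4 was nearest to ANKRD13B (0.97), DSTYK (0.97), PHC1 (0.96) and C14orf132 (0.94). EGR1 was nearest to ST6GAL2 (0.96), MAP3K21 (0.95), SRPX (0.93), VKORC1L1 (0.93) and FAM102B (0.92). No p is given for these values of r.

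In the order of group means, DUSP6 ran from E7 (highest) through E7+NODAL, E7+TGFb and E7+ActivinA, none of which overlapped its neighbour, to the 4 groups with 2DG, with E7+TGFb+2DG lowest. Only neighbours among the groups with 2DG overlapped, E7+ActivinA+2DG with those on both sides. ETV5 ran from E7+TGFb+2DG, E7+2DG and E7+NODAL+2DG, which overlapped, to E7+NODAL, then to E7+ActivinA+2DG, E7 and E7+TGFb, which overlapped, and to E7+ActivinA, apart from the rest. SPRY1 ran from E7+NODAL to E7+NODAL+2DG, each apart, then to E7 and E7+TGFb, which overlapped, and the last 4 groups overlapped in a chain. SPRY4 ran from E7+NODAL and E7+TGFb, which overlapped, to E7+2DG and E7+NODAL+2DG, and the other 4 groups overlapped in a chain, with E7+ActivinA lowest at 2368 and 3265. For EGR1 only E7+NODAL stood apart from its neighbour.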

How the data were processed

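Polyadenylated RNA of H1 cells was sequenced from both ends on an Illumina NextSeq 500. Tools named by the submitters' processing notes are STAR, Trimmomatic 0.36, DESeq2 1.26.0 and featureCounts 1.5.3, with the build hg38. Their settings, strandedness included, and how genes were filtered are not given in the sources used here. The deposited table is a signal made by the authors: each library's reads per gene over its own size factor. All values (100%) were whole multiples of 1 read within 1e-06, so whole reads were recovered.

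The 16 libraries were grouped by the labels. In R 4.3.3, limma 3.58.1 with an intensity trend was fitted to log2 of the value plus 1, with 8 group means over all libraries, for the genes that reached 10 in 2 or more libraries. Fold changes are on that scale. The p-values are two-sided and adjusted by Benjamini-Hochberg within each of 16 comparisons over all genes tested, and a call is an adjusted p under 0.05. The fit was tested on simulated data. The 10 members and the 13 gene lists were chosen with earlier results of these data known, and the direct comparison of NODAL with Activin A was added after the values were seen. Each list is given by its counts and median, with up to 4 of its called genes of largest change named, and FGF2, FGF4, FGF8, FGFR1, FGFR2, FOS, JUN, MYC, IER2, IER3, DUSP1 and SPRED2 could be named in any comparison. Likeness used Pearson's r over group means among genes averaging at least 100, and 1 gene so chosen is not reported here. The alternatives were TMM factors, the same total in every library, pseudocounts of 0.5 and 8, no filter, a mean of at least 50, fewer libraries, a replicate block, DESeq2 1.42.0 or edgeR 4.0.16 run on recovered reads, and each library left out in turn.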

Additional observations from a re-analysis of the deposited data

Results flagged for a closer look

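PHLDA1, a listed response gene that ERK signalling induces, had a different response to 2DG in NODAL medium than in E7. It counted 332 and 350.1 in E7 and 468 and 442 in E7+2DG, and 528 and 515 in E7+NODAL and 423 and 414 in E7+NODAL+2DG. It was higher with 2DG in E7 and lower in both NODAL libraries with 2DG, and the interaction was -0.73 (SE 0.15, adjusted p = 0.041) with limma. The call was lost with a replicate block, which left 0 genes called for this interaction. Without replicate 2 of E7 no gene was called for this interaction (0 in place of 313), so the PHLDA1 call was lost there. With all 16 libraries in the fit, it was the only tested gene among the 10 members and the 7 pathway lists with a called interaction in any of the 3 media. That is 1% of the 100 listed pathway genes tested, beside 1.87% of all genes in the NODAL interaction, so the count does not exceed the share over all genes. Across genes this interaction followed exon length with Spearman's rho = -0.378, and the part of length in the PHLDA1 value was not tested.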

How the results depend on the processing

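No member changed direction among its called values. The 34 called values gave 350 values under the settings other than leaving out 1 library, of which 330 kept the call and 20 lost it, and 544 values with 1 library left out, of which 443 kept it. DUSP4, DUSP5 and DUSP6 kept their calls for 2DG in E7 in all of them. In the fit of only the compared libraries, the number of called members was 7 for 2DG in TGFb medium, 0 for 2DG in Activin A medium, 7 for 2DG in NODAL medium, 1 for TGFb without 2DG, 0 for Activin A without 2DG, 2 for Activin A with 2DG, 4 for NODAL with 2DG, 1 for the TGFb by 2DG interaction, 2 for the NODAL by 2DG interaction and 0 for NODAL against Activin A without 2DG. Without the 4 Activin A libraries it was 7 for 2DG in E7, 7 for 2DG in TGFb medium, 6 for 2DG in NODAL medium, 2 for TGFb without 2DG, 4 for NODAL with 2DG, 1 for the TGFb by 2DG interaction and 3 for the NODAL by 2DG interaction. DESeq2 called 2 members for 2DG in Activin A medium and 2 in NODAL medium. A replicate block left 0 members for NODAL with 2DG and moved the other counts of members by at most 1. Deviations of same-numbered libraries correlated above 0.1 in 3 of 28 pairs of groups (r from -0.39 to 0.24). These deviations also followed exon length in some groups, so they do not decide whether replicate numbers mark a shared batch. The labels do not state it. With 1 library left out, the count of members ranged from 3 to 6 for 2DG in E7, 1 to 7 for 2DG in TGFb medium, 0 to 7 for 2DG in Activin A medium, 0 to 4 for 2DG in NODAL medium and 5 to 8 for 2DG averaged over 4 media. It ranged from 0 to 1 for TGFb without 2DG, 0 to 5 for Activin A without 2DG, 0 to 4 for NODAL without 2DG, 2 to 6 for Activin A with 2DG and 0 to 4 for NODAL with 2DG. For TGFb with 2DG it was 0 throughout. For the interactions it ranged from 0 to 1 (TGFb), 0 to 3 (Activin A) and 0 to 2 (NODAL), and for NODAL against Activin A from 2 to 5 without and 3 to 5 with 2DG.

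Counts over all genes moved more. Without the 4 Activin A libraries, 7590 genes were called for 2DG in E7 in place of 4913, 4109 in place of 1644 in TGFb medium, 3388 in place of 982 in NODAL medium, 4381 in place of 0 for TGFb, 6479 in place of 3601 for NODAL, 2952 in place of 106 for NODAL with 2DG, and 2457 and 4800 in place of 0 and 313 for the TGFb and NODAL interactions. With only the compared libraries the counts were 6332, 3 and 4865 for 2DG in TGFb, Activin A (main count 284) and NODAL media, 2435 for TGFb, 96 for Activin A (main count 1675), 3375 for NODAL with 2DG, 1525, 0 and 3940 for the 3 interactions (Activin A: main count 7) and 0 for NODAL against Activin A (main count 1338). DESeq2 called 602, 310, 277, 43 and 1716 genes for 2DG in Activin A medium, TGFb, NODAL with 2DG and the Activin A and NODAL interactions. The NODAL interaction had 847 with a mean of at least 50 and 0 with the block, PHLDA1 included, and that of Activin A 11 with TMM factors and 12 with a mean of at least 50. With 1 library left out, the calls for 2DG numbered 1586 (without replicate 2 of E7) to 7003 in E7, 370 to 3158 in TGFb medium, 46 to 5565 in Activin A medium, 164 to 2467 in NODAL medium and 5367 to 8545 averaged. Without 2DG they numbered 0 to 3350 for TGFb, 642 to 4742 for Activin A and 829 to 5678 for NODAL, and with 2DG 0, 624 to 1948 and 11 to 1767. The interactions had 0 to 1235 (TGFb), 2 to 2146 (Activin A) and 0 to 3890 (NODAL), and NODAL against Activin A 305 to 4926 without and 651 to 3507 with 2DG. The causes were not tested. In 15 of 16 comparisons the highest such count came without 1 of the 2 E7+ActivinA libraries. Depth limits EGR1, with 3 to 30 reads per library.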
